A study of Mus musculus with 14 samples.

Results

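The 38 genes described here carry cells through mitosis. They were taken as a named set, put together with earlier results of these data known: 6 entry kinases and cyclins, 4 spindle checkpoint genes, 6 centromere and kinetochore genes, 2 genes of the chromosomal passenger complex, 2 of anaphase promotion, 5 of spindle assembly, 7 of the midzone and cytokinesis, and 6 of the mitotic chromosome. All 38 were listed among the 27998 genes of the culture tables. They were followed in mouse neural stem cells from the subventricular zone of adult animals. Wildtype cells had been kept in culture for 3 days with BMP4 or for 3 days with EGF, 1 droplet library each. Freshly isolated cells came from APLP1-/- mice and from wildtype mice labelled as their control, again with 1 library each, in which antibody-linked hash tags against MHC class I and CD45 marked the cells of single mice. Neurospheres gave 8 RNA immunoprecipitation (RIP) libraries with 2 replicates of each kind: a CPEB4 precipitate labelled CPEB4-/-, and from wildtype neurospheres a CPEB4 precipitate, an IgG precipitate and the input.

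Mitosis is entered when CDK1 is activated by B-type cyclins. Kinetochores then attach chromosomes to spindle microtubules while the spindle checkpoint holds back the anaphase-promoting complex, and once CDC20 is free that complex destroys cyclin B and securin. Most genes of this programme are silent in resting cells and are switched on together late in the cell cycle; the CHR promoter element is bound by repressive MuvB complexes in resting cells and by activating ones in dividing cells. In the adult subventricular zone, quiescent stem cells divide rarely, whereas activated progenitors and early neuroblasts cycle. BMP signalling is known to favour quiescence there and EGF to favour division. CPEB4 is an RNA-binding protein that recognises elements in 3′ untranslated regions and is known for polyadenylation control of mitotic messages.

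The core CHR sequence, TTTGAA, was common near the start sites of these genes. The search read both strands of RefSeq windows that run 250 bases upstream of each start to the end of a 300-base stretch (build GRCm38.p6). It found the 6 letters in 26 of the 33 genes with such a window (78.8%), against 5466 of 27025 genes overall (20.2%). Within 50 bases of the start the share was 24 of 33 (72.7%), against 5.94% of genes overall. CCAAT, which does not overlap TTTGAA, was present in 25 of 33 (75.8%) against 41.1%. Ccna2, Aurkb, Tpx2, Kif20a and Smc4 were not analysed here for want of a window, and Ccnb1, Bub1, Mad2l1, Cenpe, Nuf2, Birc5 and Nusap1 held no TTTGAA in theirs. A match describes the letters only. In the Kif20b line below, a further match follows the capitals directly and is printed in small letters. The lines below show 1 gene for each role group with a printed site, the one whose match lay nearest the start, and Knl1 and Kif20b, which led the RIP comparison with input; each is read 5′ to 3′ on the strand named, with the match in capitals.
Ccnb2 (chr9:70421535-70421560, minus strand): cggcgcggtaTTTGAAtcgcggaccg
Ttk (chr9:83834686-83834711, minus strand, opposite to the gene): cggaaacacgTTTGAAatttccccgc
Cenpf (chr1:189688069-189688094, minus strand): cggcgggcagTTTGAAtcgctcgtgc
Cdc20 (chr4:118437346-118437371, minus strand): acagttgggtTTTGAAggagccaatg
Hmmr (chr11:40733414-40733439, minus strand): ttgaggtaaaTTTGAAttcaggcgag
Prc1 (chr7:80294436-80294461, plus strand): tctggctcggTTTGAAttccgcgggg
Top2a (chr11:99024197-99024222, plus strand, opposite to the gene): cctagtttcaTTTGAAcctttatcta
Knl1 (chr2:119047140-119047165, plus strand): ggcggttagaTTTGAAtacttcaggg
Kif20b (chr19:34922355-34922380, plus strand): gccgccattgTTTGAAtttgaaaacc

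The first comparison was between BMP4 and EGF cultures, the quiescent and active states named in the study's design. All 38 genes were at least 2-fold lower with BMP4; 15.4% of the 14502 genes with enough counts were that much lower and 23.1% that much higher. Their median log2 ratio of BMP4 over EGF was -3.22 and ran from -4.12 for Bub1 to -1.90 for Ncapd2, while the median of all genes was 0.15. Summed over the set, the BMP4 library held 5037 counts (290.9 CPM, counts scaled to library size) and the EGF library 92641 (2757 CPM), a level 9.48-fold lower with BMP4 (95% interval 9.21 to 9.75). With 1 library per culture there is no replicate check and no test. The exact binomial intervals cover counting error only. They treat each count as independent, although counts gathered in part of the cells, so they can be too narrow. Whether 2 intervals overlap is a description.

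Among the entry genes, Cdk1, the kinase that drives mitotic entry, had 137 counts (7.91 CPM) with BMP4 and 2030 counts (60.4 CPM) with EGF, which was 7.63-fold lower (6.42 to 9.14). Ccnb1, its cyclin B1 partner, had 162 counts (9.36 CPM) with BMP4 and 3160 (94.04 CPM) with EGF, 10.1-fold lower (8.58 to 11.8). Plk1, a kinase of mitotic entry and spindle formation, had 25 counts (1.44 CPM) with BMP4 and 730 (21.7 CPM) with EGF, 15.05-fold lower (10.1 to 23.4). The group of 6, which also holds Ccnb2, Ccna2 and Aurka, spanned log2 ratios of -3.88 to -2.93, so Cdk1 moved least within it.

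Bub1, a checkpoint kinase at kinetochores (chr2:127800197-127831859, GRCm38.p6), showed the largest ratio of the set. It had 17 counts (0.982 CPM) with BMP4 and 591 (17.6 CPM) with EGF, 17.9-fold lower (11.1 to 31.0). Mad2l1, the checkpoint protein that binds CDC20, had 113 counts (6.53 CPM) with BMP4 and 1614 (48.0 CPM) with EGF, 7.36-fold lower (6.08 to 8.99). The intervals of Bub1 and Mad2l1, the largest and smallest ratios of the checkpoint group, did not overlap, and their difference was not tested. Cenpe, the kinetochore motor that helps chromosomes congress, had 65 counts (3.75 CPM) with BMP4 and 1958 (58.3 CPM) with EGF, 15.5-fold lower (12.1 to 20.2). Nuf2, a subunit of the NDC80 complex that grips microtubules, had 77 counts (4.45 CPM) with BMP4 and 949 (28.2 CPM) with EGF, 6.35-fold lower (5.03 to 8.12). Cenpe and Nuf2 bounded the kinetochore group, whose other members are Cenpa, Cenpf, Ndc80 and Knl1.

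Aurkb and Birc5 encode the kinase and survivin of the chromosomal passenger complex, and their ratios were alike. Aurkb had 45 counts (2.60 CPM) with BMP4 and 1100 (32.7 CPM) with EGF, 12.6-fold lower (9.35 to 17.4). Birc5 had 264 counts (15.2 CPM) with BMP4 and 6453 (192 CPM) with EGF, 12.6-fold lower (11.1 to 14.3). Of the anaphase genes, Ube2c, the ubiquitin-conjugating enzyme of the anaphase-promoting complex, had 343 counts (19.8 CPM) with BMP4 and 9840 (293 CPM) with EGF, 14.8-fold lower (13.3 to 16.5). Cdc20, the activator of that complex, had 100 counts (5.78 CPM) with BMP4 and 1628 (48.4 CPM) with EGF, 8.39-fold lower (6.85 to 10.4). The Ube2c interval lay wholly above that of Cdc20.

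In the spindle group, Hmmr, a spindle-assembly microtubule protein, had 73 counts (4.22 CPM) with BMP4 and 1506 (44.8 CPM) with EGF, 10.6-fold lower (8.4 to 13.6). Kif11, the motor that pushes spindle poles apart, had 103 counts (5.95 CPM) with BMP4 and 1425 (42.4 CPM) with EGF, 7.13-fold lower (5.83 to 8.79). Tpx2, Nusap1 and Ckap2l lay between these. At the midzone, Kif20b, a kinesin of late mitosis, had 47 counts (2.71 CPM) with BMP4 and 991 (29.5 CPM) with EGF, 10.9-fold lower (8.11 to 14.9). Anln, the anillin scaffold of the contractile ring, had 66 counts (3.81 CPM) with BMP4 and 702 (20.9 CPM) with EGF, 5.48-fold lower (4.25 to 7.17). The remaining cytokinesis genes, Kif23, Kif20a, Prc1, Racgap1 and Ect2, fell within that span.

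The mitotic chromosome genes held the smallest ratios. Mki67, which encodes the Ki-67 surfactant of mitotic chromosomes, had 193 counts (11.1 CPM) with BMP4 and 3453 (103 CPM) with EGF, 9.22-fold lower (7.97 to 10.7). Top2a, topoisomerase II alpha, had 357 counts (20.6 CPM) with BMP4 and 6351 (189 CPM) with EGF, 9.17-fold lower (8.24 to 10.2). Condensin subunits were split. Smc2, an ATPase shared by both condensins, had 247 counts (14.3 CPM) with BMP4 and 5140 (153 CPM) with EGF, 10.7-fold lower (9.44 to 12.2). Its partner Smc4 had 444 counts (25.6 CPM) with BMP4 and 4028 (120 CPM) with EGF, only 4.67-fold lower (4.24 to 5.17). Ncapd2, a regulatory subunit of condensin I (chr6:125168007-125192100), had 199 counts (11.5 CPM) with BMP4 and 1449 (43.1 CPM) with EGF, 3.75-fold lower (3.23 to 4.37). The 2 SMC subunits, which work as a pair, thus had intervals that did not overlap.

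**Figure D1:**
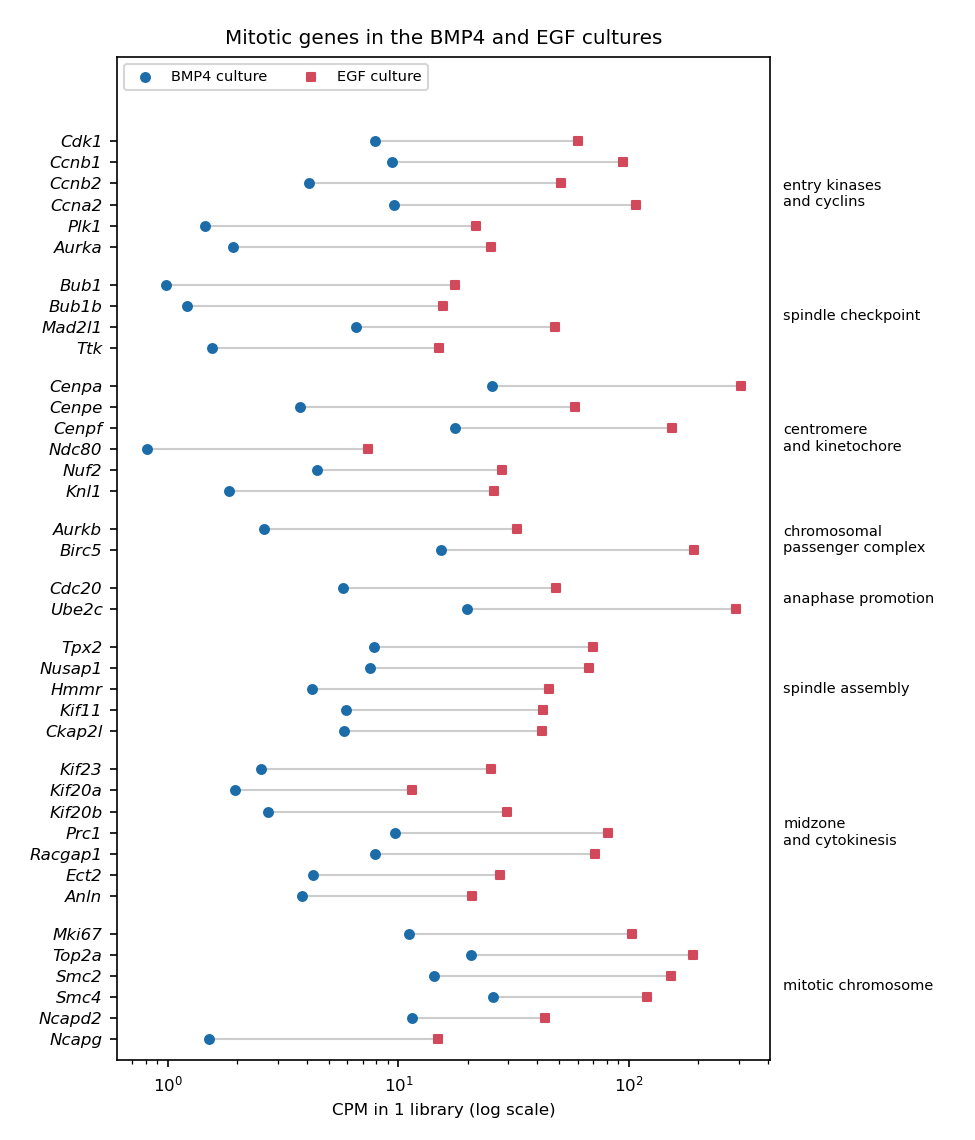
CPM (log scale) of the 38 genes in the BMP4 and EGF cultures, 1 library each, grouped by role, with no error bar because there were no replicates. Every BMP4 point lies to the left of its EGF point, with the widest gap for Bub1 (17.9-fold) and the narrowest for Ncapd2 (3.75-fold).

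Counted per cell, fewer BMP4 cells than EGF cells held several of these genes. Cells were thinned at random to 4500 counts each, because the BMP4 cells had a median of 17355 counts and the EGF cells 22867. None of the 38 genes was detected in 594 of 887 BMP4 cells (67.0%) and in 146 of 1410 EGF cells (10.4%). At least 5 of them were detected in 36 BMP4 cells (4.06%, interval 2.86 to 5.57) and in 769 EGF cells (54.5%, 51.9 to 57.2). Without thinning those shares were 7.10% with BMP4 and 82.3% with EGF. The threshold of 5 cuts a range and not a cell type: exactly 5 genes were detected in 2 BMP4 cells and 80 EGF cells, and exactly 4 in 1 BMP4 cell and 78 EGF cells.

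Cells past that threshold were chosen by these same genes, so their levels are a description only. The median summed count over the set was 16.5 in BMP4 cells (interquartile range 9 to 29.25) and 16 in EGF cells (10 to 25), and the median number of genes detected was 12 with BMP4 and 11 with EGF. These few BMP4 cells held 69.9% of the thinned mitotic counts of their culture, and the EGF cells past the threshold held 91.8% of theirs. Cells below the threshold were not alike either, with an average of 0.370 counts with BMP4 and 2.01 counts with EGF. The 10% of cells with the highest sums held 80.5% of the mitotic counts with BMP4 and 33.4% with EGF. The variance of the sum over its mean, which is 1 for counts that scatter only by sampling, was 19.96 with BMP4 and 12.4 with EGF.

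The spread of single genes was mixed. The variance over mean was at or below 1 for 11 of the 38 genes with BMP4 and for none with EGF, and it was higher with BMP4 than with EGF for 16 of the 38; the median was 1.41 with BMP4 and 1.24 with EGF. No thinned BMP4 cell held more than 1 count of any of these 11, so their value could not exceed 1. It marks a floor of detection there and does not describe spread. The BMP4 median and the 16 of 38 include these genes. Plk1 was one of the 11, at 0.997 with BMP4, from 4 thinned cells, and 1.30 with EGF. Ube2c and Cenpa had the highest values in both cultures. Ube2c was detected in 4.4% of thinned BMP4 cells and 46.2% of EGF cells (7.89% and 76.9% unthinned), with variance over mean of 4.43 with BMP4 and 2.92 with EGF. Cenpa, the centromeric histone H3 variant, was detected in 4.28% of BMP4 cells and 50.3% of EGF cells (9.02% and 76.5% unthinned), with variance over mean of 3.81 with BMP4 and 2.495 with EGF. Mki67 was detected in 2.37% of BMP4 cells and 29.1% of EGF cells (7.44% and 58.1% unthinned). The condensin gene Smc4 was detected in 9.70% of BMP4 cells and 32.8% of EGF cells (29.5% and 69.4% unthinned), and its variance over mean was 1.23 with BMP4 and 1.42 with EGF. Bub1 was found in 1 thinned BMP4 cell and in 82 EGF cells.

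Cells with several mitotic genes held some of them at like shares in both cultures and others at unlike shares. To keep a gene from selecting its own cells, each was read in cells with at least 5 of the other 37 genes, which left 34 to 36 BMP4 cells and 720 to 769 EGF cells. Cenpf, a large kinetochore protein, was detected in 58.3% of such BMP4 cells and 56.9% of such EGF cells, and Top2a in 54.3% with BMP4 and 55.8% with EGF. Ccna2, the cyclin of S phase and G2, was detected in 69.4% with BMP4 and 48.8% with EGF. Birc5 was the other way, at 51.4% with BMP4 and 69.1% with EGF. Kif20a, a midzone kinesin, was detected in 25% with BMP4 and 7.28% with EGF, Kif23, of the centralspindlin complex, in 27.8% with BMP4 and 12.1% with EGF, and Hmmr in 38.9% with BMP4 and 22.1% with EGF. The reads of Kif20a are uncertain. Over fresh wildtype cells its counts had a correlation of 0.957 with those of Cdc23, whose span overlaps it. Bub1 was detected in 0 of 36 BMP4 cells and 9.75% of EGF cells. With so few BMP4 cells from 1 library none of these single-gene differences was tested.

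Across the 1410 thinned EGF cells, the closest pair was Cenpa with Ube2c, whose counts had a Spearman correlation of 0.499, followed by Cenpf with Ube2c at 0.479. The median over all 703 pairs was 0.162; it was 0.151 for the 84 pairs of the same role and 0.163 for the 619 pairs of different roles. These values describe cells that share a library and a fixed depth, and low counts pull them toward 0. Ube2c had the highest median correlation with the other genes (0.288) and Ndc80 the lowest (0.067).

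**Figure D2:**
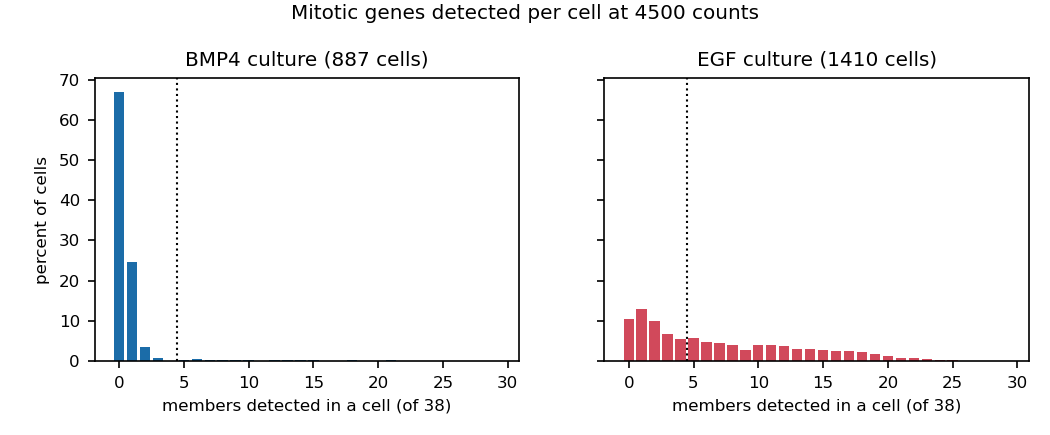
Number of the 38 genes detected per cell (horizontal axis) against the share of cells in percent (vertical axis), for the BMP4 library and the EGF library, with every cell thinned to 4500 counts and a dotted line below 5 genes. In BMP4 cells 67.0% sit at 0 genes and 4.06% at 5 or more, and in EGF cells 10.4% sit at 0 and 54.5% at 5 or more.

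Other genes of the pathway followed in part, beside 15.4% of all genes that were at least 2-fold lower and 23.1% higher. Of 31 further kinetochore and checkpoint genes 27 were at least 2-fold lower with BMP4 and none higher, with a median log2 ratio of -2.73. Ska1, of the SKA complex at kinetochores, had 17 counts with BMP4 and 612 with EGF, 18.5-fold lower (11.5 to 32.1), and Cenpn was 15.3-fold lower (10.5 to 23.1). Zwint, which also has a role in the kinetochore, went the other way with 2323 counts with BMP4 and 3729 with EGF, which scaled to library size is 1.21 times the EGF level (1.15 to 1.27), and Zw10 had a ratio of 1.16 (0.938 to 1.42). Of 26 further motors and spindle genes 23 were at least 2-fold lower, none higher; Cep55, of abscission, was 14.8-fold lower (9.27 to 25.2) and Cdca8, or borealin, 12.5-fold lower (10.6 to 14.9). Ckap5 was 1.06-fold lower (0.961 to 1.16) and Psrc1 1.55-fold lower (1.43 to 1.69), both within 2-fold.

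Only part of the machinery around these genes was lower with BMP4. The shares of all genes to set beside it are 15.4% at least 2-fold lower and 23.1% higher. Of 17 anaphase-promoting complex genes 4 were at least 2-fold lower and 13 within 2-fold, and the median log2 ratio was -0.18. That count is small and not far from the share of all genes, so no lowering of the complex is read from it. Fbxo5, which encodes the inhibitor EMI1, was 10.8-fold lower (7.94 to 15.1) and Anapc15 3.525-fold lower (3.23 to 3.86), whereas the subunit Anapc2 had a ratio of BMP4 over EGF of 1.80 (1.57 to 2.06) and Anapc11 of 1.31 (1.27 to 1.36). Of 12 further condensin and chromatid separation genes 7 were at least 2-fold lower and 1 higher. Cdca5, or sororin, was 10.7-fold lower (6.97 to 17.2) and Espl1, or separase, 7.93-fold lower (4.53 to 15.1). Pttg1, which encodes securin, was the higher gene, with 1184 counts in BMP4 cells and 1125 in EGF cells, or 2.04 times the EGF level after scaling (1.88 to 2.22), and the cohesin gene Stag2 was 1.06-fold lower (0.983 to 1.14).

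Regulators were read in lists of mitotic entry and of transcription. Of 12 entry regulators 10 were at least 2-fold lower with BMP4, led by the phosphatase gene Cdc25c, 11.6-fold lower (7.36 to 19.5), and Cks2, a CDK-binding subunit, 11.5-fold lower (10.5 to 12.6), while Mastl was 1.43-fold lower (1.15 to 1.80) and Cdc25b 1.64-fold lower (1.40 to 1.93). Of 16 transcriptional regulators of mitotic genes 9 were at least 2-fold lower and 2 higher, a smaller share of higher genes than the 23.1% of all genes. Mybl2, which encodes B-MYB, had 33 counts with BMP4 and 661 with EGF, 10.3-fold lower (7.28 to 15.1), and E2f8 was 9.36-fold lower (6.52 to 13.9). Rbl2, which encodes the p130 subunit of the resting-cell DREAM complex, stood at 16.7 CPM with BMP4 (289 counts) and at 6.28 CPM with EGF (211 counts), 2.66 times as high (2.22 to 3.19). Lin52, a MuvB subunit, had 290 counts with BMP4 and 202 with EGF, a ratio of 2.79 (2.32 to 3.35). Beside these values, 12 of 15 quiescent stem cell and astrocyte markers were at least 2-fold higher with BMP4, Aqp4 among them with 13751 counts against 14 with EGF. Other marker lists are set beside all genes, of which 23.1% were at least 2-fold higher with BMP4 and 15.4% lower. Of 10 activated progenitor markers 6 were at least 2-fold lower with BMP4 and 1 higher, with Egfr at 292 counts with BMP4 and 2624 with EGF. Of 7 oligodendrocyte markers 4 were higher and 1 lower (median log2 ratio 2.95), with Mbp, or myelin basic protein, at 418 counts with BMP4 and 8 with EGF. Of 12 neuroblast markers 3 were higher and 4 lower, of 6 endothelial markers 3 and 1, and of 7 mature neuron markers 1 and 3. Of 6 ependymal markers none was higher and 2 were lower, and of 2 microglia markers none went either way. Counts this small are not read as a change of those lists. The part of any marker list in the mitotic values was not tested.

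Freshly isolated cells were sparse, and the APLP1-/- library came with 1879 cells and a median of 424 counts per cell, against 2209 cells and 364 counts in the wildtype library; 13 barcodes occurred in both. Aplp1 itself had 54 counts (44.0 CPM) in the library labelled APLP1-/- and 246 counts (217 CPM) in the wildtype library. Ndc80 was not listed in the APLP1-/- table, so 37 of the genes were shared. Cells were placed in classes by marker lists that hold none of the 38 genes: activated progenitor (12 markers, such as Egfr), neuroblast (16, such as Dcx and Dlx2), quiescent stem cell or astrocyte (15, such as Slc1a3 and Aqp4) and microglia (10, such as C1qa and Csf1r). The oligodendrocyte markers Mog, Mag, Cldn11 and Opalin were absent from the APLP1-/- table, and the neuroblast markers Tubb3 and Dlx6os1 were absent from both. Neuroblast-marker and quiescent-marker cells held more of their own list than of any other. Progenitor-marker cells carried 6545 CPM (APLP1-/-) and 9081 CPM (wildtype) of the quiescent list beside 3995 CPM and 4347 CPM of their own, and wildtype microglia-marker cells 12808 CPM of the quiescent list beside 11755 CPM of their own, so they are called by their marker list only.

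Among the 3 lineage classes, mitotic genes were highest in progenitor-marker cells, next in neuroblast-marker cells, and lowest in quiescent-marker cells. In progenitor-marker cells the summed level was 6151 CPM (5881 to 6430) in the APLP1-/- library, from 285 cells, and 3898 CPM (3651 to 4157) in the wildtype library, from 237 cells. In neuroblast-marker cells it was 4787 CPM (4550 to 5034) in the APLP1-/- library, from 376 cells, and 3488 CPM (3249 to 3740) in the wildtype library, from 348 cells. In quiescent-marker cells it was 949 CPM (859 to 1046) in the APLP1-/- library, from 923 cells, and 513 CPM (453 to 578) in the wildtype library, from 1338 cells. The order of the 3 classes was the same in both libraries. Endothelial-marker cells (5628 CPM) and cells with no class (4872 CPM) stood above neuroblast-marker cells in the APLP1-/- library, and below them in the wildtype library (3291 and 3185 CPM).

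Depth differed between the classes, so detection was also read in cells thinned to 200 counts. At least 1 of the genes was detected in 43.1% of progenitor-marker cells of the APLP1-/- library (62.5% unthinned, median depth 828) and 34.5% in the wildtype library (51.1%, depth 794). In neuroblast-marker cells the shares were 32.4% in the APLP1-/- library (48.1%, depth 554) and 26.5% in the wildtype library (37.1%, depth 494). In quiescent-marker cells they were 7.66% (5.94 to 9.70; 13.1% unthinned, depth 357) in the APLP1-/- library and 5.02% (3.81 to 6.47; 7.85%, depth 312) in the wildtype library. Microglia-marker cells, which are no part of the neural lineage, gave 12.8% (4.30 to 27.4; depth 358) from 39 thinned cells of the APLP1-/- library and 6.25% (0.766 to 20.8; depth 368) from 32 of the wildtype library. The quiescent share was not above that of microglia-marker cells in either library, with wide intervals for the few microglia-marker cells, so no expression is read from this share. At least 5 of the genes were detected in 9 quiescent-marker cells of each library, and in 1 microglia-marker cell of each.

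Summed counts per class and library were tested with edgeR's quasi-likelihood test, with the library as a block; the 2 libraries, each from pooled mice, are the replicates, so p-values measure the spread between these samples. Of 5293 genes tested, 9.67% were higher and 11.3% lower in progenitor-marker than in quiescent-marker cells, and 26 of the 29 mitotic genes that passed the filter on low counts were higher, none lower. Between neuroblast-marker and quiescent-marker cells 15.2% of genes were higher and 16.5% lower, and again 26 of 29 mitotic genes were higher, none lower. With classes from a plain sum of marker counts instead, 14 and 12 were higher. A low gene could pass that filter only through a class where it was high, so these counts speak for the tested genes alone; Aurka, Bub1, Bub1b, Ttk, Ndc80, Nuf2, Kif20b, Anln and Ncapg were not tested. Over all listed genes of the set, the progenitor-marker CPM was above the quiescent-marker CPM in 37 of 37 in the APLP1-/- library and 38 of 38 in the wildtype library, and the neuroblast-marker CPM in 36 and 36. That share was not computed over all genes. Of the 5293 genes tested, 2650 (progenitor-marker) and 2681 (neuroblast-marker) had a fitted log2 fold change above 0, beside all 29 mitotic genes tested. Some directions rest on very few counts. In the wildtype library Kif20b had 1 count in progenitor-marker and 0 in quiescent-marker cells, and Bub1b had 1 and 2. In quiescent-marker cells 5 of the genes had no count in the APLP1-/- library and 6 in the wildtype library.

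Top2a had 230 and 89 counts in progenitor-marker cells (725 CPM in the APLP1-/- library, 374 CPM in wildtype), 211 and 84 counts in neuroblast-marker cells (664 and 371 CPM) and 51 and 21 counts in quiescent-marker cells (120 and 40.2 CPM). The log2 fold change of Top2a was 2.80 ± 0.29 (SE) in progenitor-marker over quiescent-marker cells (edgeR adjusted p = 7.12e-06) and 2.94 ± 0.29 in neuroblast-marker over quiescent-marker cells (edgeR adjusted p = 1.85e-06). Smc4, whose ratio between the cultures was among the smallest, was also counted often in quiescent-marker cells. It had 250 and 150 counts in progenitor-marker cells (788 CPM in the APLP1-/- library, 630 CPM in wildtype), 268 and 169 in neuroblast-marker cells (843 and 746 CPM) and 76 and 95 in quiescent-marker cells (178 and 182 CPM). Its log2 fold changes were 1.92 ± 0.24 for progenitor-marker cells (edgeR adjusted p = 3.7e-05) and 2.30 ± 0.24 for neuroblast-marker cells (edgeR adjusted p = 3.49e-06). The few microglia-marker cells held 9 counts of Smc4 in the APLP1-/- library (429 CPM) and 0 in the wildtype library. The quiescent-marker level was thus not above theirs in the APLP1-/- library.

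Ccnb1 was nearly absent from quiescent-marker cells, with 90 and 32 counts in progenitor-marker cells (284 CPM in the APLP1-/- library, 134 CPM in wildtype), 38 and 17 in neuroblast-marker cells (120 and 75.1 CPM) and 3 and 1 in quiescent-marker cells (7.03 and 1.91 CPM). Its fitted log2 fold changes were 5.42 ± 0.56 for progenitor-marker cells (edgeR adjusted p = 8.11e-06) and 4.57 ± 0.59 for neuroblast-marker cells (edgeR adjusted p = 3.14e-05). Racgap1, a subunit of the centralspindlin complex of the midzone, had 78 and 51 counts in progenitor-marker cells, 89 and 37 in neuroblast-marker cells and 10 and 6 in quiescent-marker cells, with log2 fold changes of 3.7 ± 0.43 for progenitor-marker cells (edgeR adjusted p = 1.92e-05) and 3.83 ± 0.43 for neuroblast-marker cells (edgeR adjusted p = 6.71e-06). Nusap1, which bundles spindle microtubules, had 143 and 94 counts in progenitor-marker cells, 145 and 83 in neuroblast-marker cells and 32 and 7 in quiescent-marker cells, with log2 fold changes of 3.36 ± 0.41 (edgeR adjusted p = 3.48e-05) and 3.51 ± 0.42 (edgeR adjusted p = 1.15e-05). Ube2c had 120 and 45 counts in progenitor-marker cells, 86 and 37 in neuroblast-marker cells and 21 and 9 in quiescent-marker cells, with log2 fold changes of 3.08 ± 0.37 (edgeR adjusted p = 2.92e-05) and 2.94 ± 0.38 (edgeR adjusted p = 2.76e-05). In each of these 6 genes progenitor-marker and neuroblast-marker cells lay above quiescent-marker cells in both libraries, in CPM. The 6 were chosen for the smallest p in these comparisons, so that agreement is a description only.

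Cdc20 did not pass in either comparison. It had 28 and 6 counts in progenitor-marker cells, 13 and 4 in neuroblast-marker cells and 2 and 8 in quiescent-marker cells, which in the wildtype library are 25.2, 17.7 and 15.3 CPM in that order of classes; its edgeR adjusted p was 0.0836 for progenitor-marker and 0.224 for neuroblast-marker cells. Kif20a had edgeR adjusted p-values of 0.0657 for progenitor-marker and 0.353 for neuroblast-marker cells. Its reads are uncertain, because its counts over wildtype cells had a correlation of 0.957 with those of Cdc23, whose span overlaps it, and strand was not known to have been used. Cdc20 with Elovl1 (0.658) and Ccna2 with Exosc9 (0.560) were the next such pairs. Cenpe fell short in progenitor-marker cells (log2 fold change 3.35, edgeR adjusted p = 0.0568), and Plk1 in neuroblast-marker cells (2.05, edgeR adjusted p = 0.132).

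Progenitor-marker and neuroblast-marker cells were not separated by any of the 29 genes, where 1.74% of genes tested were higher and 2.51% lower in progenitor-marker cells; 2 of the 29 and 17.5% of all genes had an unadjusted edgeR p below 0.05, and DESeq2 called none. Those with the smallest p were the cyclin genes Ccna2, with a log2 difference of 0.85 ± 0.35 (edgeR adjusted p = 0.216), and Ccnb1, with 0.85 ± 0.40 (edgeR adjusted p = 0.282), then Plk1 with 1.62 ± 0.81 (edgeR adjusted p = 0.317). Ccna2 had 88 and 67 counts in progenitor-marker cells, 46 and 28 in neuroblast-marker cells and 22 and 15 in quiescent-marker cells, and Plk1 had 17 and 16, 5 and 4, and 2 and 2 counts in the same order of classes and libraries. A miss at this depth does not show that the 2 classes are alike.

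**Figure D3:**
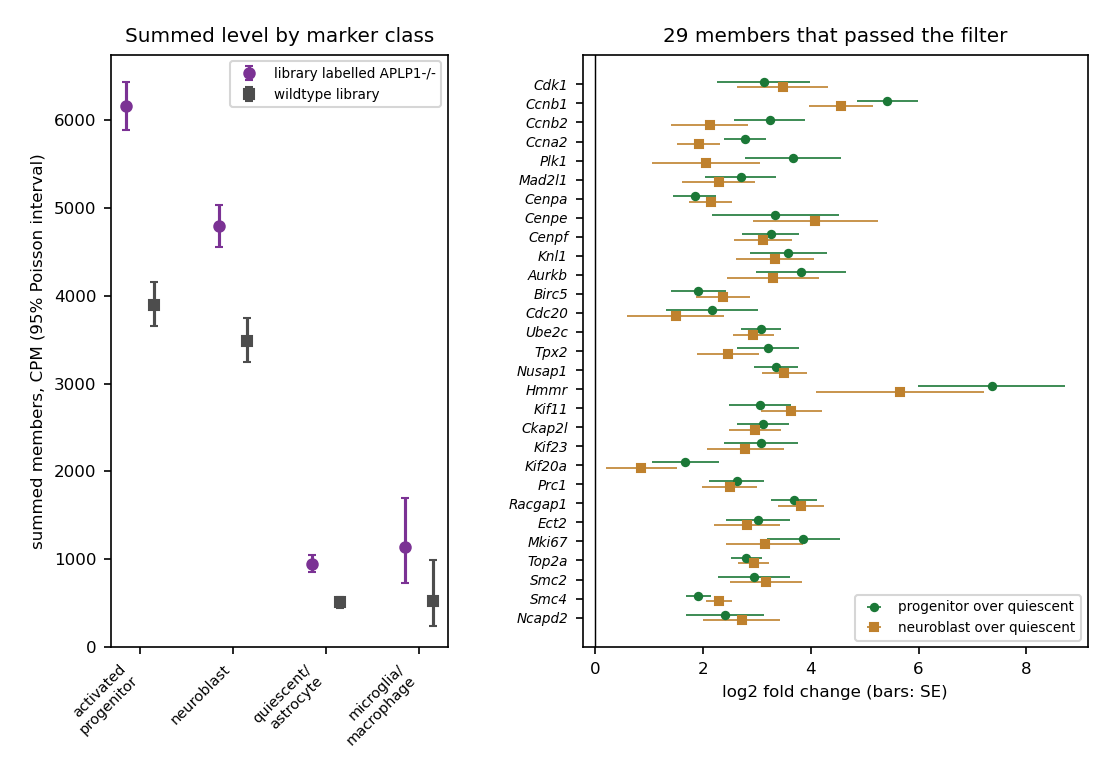
Left, summed CPM of the mitotic genes by marker class in the fresh APLP1-/- and wildtype libraries, with 95% exact Poisson intervals for counting error only (6151 and 3898 CPM in progenitor-marker cells, 949 and 513 CPM in quiescent-marker cells). Right, edgeR log2 fold changes (bars, SE) of the 29 tested genes in progenitor-marker and neuroblast-marker over quiescent-marker cells, all above 0; the fitted value of Hmmr, which had no count in quiescent-marker cells, is no bound.

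Other pathway genes were higher in fresh cells to an extent that depended on the list, beside 9.67% (progenitor-marker) and 15.2% (neuroblast-marker) of all genes tested. Of 18 tested kinetochore and checkpoint genes outside the set, 11 were higher in progenitor-marker and 11 in neuroblast-marker than in quiescent-marker cells. Spc25, the NDC80-complex subunit, had 36 and 25 counts in progenitor-marker cells, 29 and 9 in neuroblast-marker cells and 4 and 2 in quiescent-marker cells, with log2 fold changes of 4.01 ± 0.65 for progenitor-marker and 3.43 ± 0.67 for neuroblast-marker cells. Cenph, of the inner kinetochore, rose by 2.42 ± 0.45 in progenitor-marker cells, and Cenpl by 3.51 ± 0.57 in neuroblast-marker cells. Of 17 tested motors and spindle genes, 9 and 10 were higher; Cit, the citron kinase of cytokinesis, had log2 fold changes of 2.67 ± 0.25 for progenitor-marker and 2.79 ± 0.25 for neuroblast-marker cells, and Cdca2 of 3.20 ± 0.44 and 3.42 ± 0.44. Of 8 condensin and separation genes 2 and 3 were higher, Ncapg2 (2.83 ± 0.47 and 2.67 ± 0.48) and Esco2 (3.11 ± 0.85 and 3.02 ± 0.86) in both comparisons. Of 16 anaphase-promoting complex genes 1 and 2 were higher, no more than the share of all genes, Anapc15 (5.01 ± 1.12 for progenitor-marker, 4.65 ± 1.15 for neuroblast-marker cells) and, in neuroblast-marker cells, Fbxo5 (3.24 ± 0.80). Of 6 entry regulators 3 and 3 were higher, among them Cks2 (2.84 ± 0.49 and 2.32 ± 0.51) and Cks1b (2.98 ± 0.56 and 3.56 ± 0.55), and of 5 transcriptional regulators 1, the chromatin-binding Rbbp4 (1.30 ± 0.31 and 1.36 ± 0.31). None of these lists held a gene that was lower.

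The APLP1-/- library carried more mitotic RNA than the wildtype library in every lineage class. Over all cells the ratio of APLP1-/- over wildtype CPM was 1.76 (1.68 to 1.86); it was 1.58 (1.46 to 1.71) in progenitor-marker cells, 1.37 (1.26 to 1.497) in neuroblast-marker cells and 1.85 (1.58 to 2.17) in quiescent-marker cells. At least 5 of the genes were detected in 178 of 1879 cells (9.47%) of the APLP1-/- library and 114 of 2209 (5.16%) of the wildtype library. Those shares are unthinned, and the APLP1-/- cells were deeper, with a median of 424 counts against 364. In cells thinned to 200 counts, at least 1 of the genes was detected in 22.3% (APLP1-/-) and 14.3% (wildtype). With 1 library of each genotype, genotype and library cannot be told apart. Hash tags assigned only part of the cells to a mouse. Among assigned cells the mice of the APLP1-/- library gave 1324, 1369 and 1870 CPM, from 116, 157 and 133 cells, and those of the wildtype library gave 1589, 1202 and 952 CPM, from 82, 142 and 239 cells. Assigned at 3 or more tag counts, which takes in more cells, the same mice gave 1313, 2072 and 3599 CPM in the APLP1-/- library and 2099, 1104 and 1143 CPM in the wildtype library, so the level of a mouse depended on that setting. The mice of the 2 libraries overlapped at both settings, and with 3 mice on each side an exact permutation test cannot go below 0.10, so none was run. The 1473 unassigned cells of the APLP1-/- library stood at 4067 CPM and the 1746 of the wildtype library at 2263 CPM, above every tagged mouse of their library.

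The RIP libraries asked which messages a CPEB4 antibody recovers. They held 10054346 to 17466296 counts, and 17062 genes including all 38 were tested with edgeR. Cpeb4 checked the labels: it had 4825 and 1285 counts in the CPEB4 precipitate labelled CPEB4-/-, 3109 and 1025 in the wildtype CPEB4 precipitate, 239 and 755 in IgG, and 808 and 628 in the input. Its level was thus not lower under the CPEB4-/- label (log2 difference 0.65 ± 0.55, edgeR adjusted p = 1), and the labels do not say which part of the gene was deleted. The 20 most abundant genes took 38.5% and 78.1% of counts in the precipitates labelled CPEB4-/-, 50.4% and 59.1% in wildtype CPEB4, 78.0% and 73.5% in IgG, and 5.70% and 6.51% in the input. Replicate 2 labelled CPEB4-/- stood apart from its partner, with a correlation of 0.871 against 0.945 to 0.971 in the other groups. Levels below are CPM scaled by the trimmed mean of M-values (TMM).

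No difference between the CPEB4 and IgG precipitates passed for a mitotic gene. The summed TMM-scaled level of the set was 1260 and 1667 in the precipitates labelled CPEB4-/-, 1141 and 1134 in wildtype CPEB4, 1304 and 1449 in IgG, and 1160 and 1272 in the input. Between wildtype CPEB4 and IgG, edgeR called 0.00% of genes in either direction and none of the 38; at an unadjusted p below 0.05 it had 7.97% of genes and 2 of the 38, and DESeq2 called 14 genes and none of the set. The closest was Cdc20, with 7.59 and 7.67 in wildtype CPEB4 and 23.2 and 19.4 in IgG, a log2 difference of -1.48 ± 0.54 (edgeR adjusted p = 0.601). With total counts as the scale that difference was -0.44, from 7.95 and 7.29 CPM in wildtype CPEB4 and 9.95 and 10.7 CPM in IgG. The groups did not overlap for Cdc20, and it passed when only these 2 groups were fitted (edgeR adjusted p = 0.0328, 534 genes called) or when the CPEB4-/- replicate 2 was left out of the fit (edgeR adjusted p = 0.0352, 412 genes called). Cdk1 had 16.05 and 14.7 in wildtype CPEB4 and 29.5 and 26.9 in IgG, a log2 difference of -0.87 ± 0.36 (edgeR adjusted p = 0.601) that was 0.16 with total counts as the scale. Ccnb1 had 18.8 and 17.9 in wildtype CPEB4 and 37.2 and 29.6 in IgG, a log2 difference of -0.86 ± 0.42 (edgeR adjusted p = 0.601) that was 0.19 with total counts as the scale.

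No gene of the set passed between the CPEB4-/- label and wildtype CPEB4 either. The log2 difference was above 0 in 35 of the 38, beside 9845 of all 17062 genes. Its median was 0.22 over the set and 0.055 over all genes, and -0.027 and -0.19 with total counts as the scale. This shift of the set was not tested, and genes are not independent replicates. No input labelled CPEB4-/- is among the libraries, so a different RNA level in the cells and a different recovery in the precipitate cannot be told apart. In bulk samples, the share of mitotic cells and the mitotic RNA per cell cannot be told apart either. Of all genes 0.00% passed in either direction, 0.797% had an unadjusted edgeR p below 0.05, 1 of the 38 among them, and DESeq2 called none. Cenpf had 111 and 423 in the precipitates labelled CPEB4-/- and 92.0 and 76.7 in wildtype CPEB4, a log2 difference of 1.66 ± 0.67 (edgeR adjusted p = 1), and the value of 423 belonged to the replicate that stood apart, without which the log2 difference was 0.39. Cdc20 had 6.60 and 23.2 under the CPEB4-/- label and 7.59 and 7.67 in wildtype CPEB4, a log2 difference of 0.93 ± 0.53 (edgeR adjusted p = 1) that was -0.21 without that replicate. Cenpa had 23.2 and 29.99 under the label and 20.7 and 13.7 in wildtype CPEB4, with a log2 difference of 0.62 ± 0.37 (edgeR adjusted p = 1).

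Set against the input, the wildtype CPEB4 precipitate held 5 of the 38 at higher and 12 at lower levels, where 27.4% of all genes were higher and 27.6% lower, so the set held a smaller share of higher genes than the background and a share of lower genes close to it. These counts were sensitive to single libraries: the higher genes numbered 3 without input replicate 1, 2 without input replicate 2 and 3 without CPEB4 replicate 1, and the lower genes numbered 8 without input replicate 2 and 5 without either CPEB4 replicate. Directions against the input rest on the TMM scale. With total counts instead, the median of all genes shifted to -1.57 for wildtype CPEB4 and -2.62 for IgG on the log2 scale, none of the 38 was higher and 20 were lower in wildtype CPEB4, and none was higher and 28 were lower in IgG. IgG and CPEB4 precipitates share the same input libraries, so their values are given side by side.

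Knl1, the kinetochore scaffold that recruits BUB1 (chr2:119047119-119110497), had the largest excess. It stood at 60.4 and 40.3 in the precipitates labelled CPEB4-/-, 58.3 and 42.2 in wildtype CPEB4, 32.1 and 41.3 in IgG, and 5.06 and 5.88 in the input. Its log2 fold change over input was 3.20 ± 0.40 in wildtype CPEB4 (edgeR adjusted p = 0.000545) and 2.74 ± 0.40 in IgG (edgeR adjusted p = 0.0016). Every precipitate, IgG included, lay above both inputs, and with total counts as the scale the log2 value stayed above 0, at 1.73 in wildtype CPEB4 and 0.27 in IgG, but passed in neither (edgeR adjusted p = 0.0551 and 0.731).

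Kif20b had 40.3 and 20.4 under the CPEB4-/- label, 29.2 and 25.2 in wildtype CPEB4, 23.2 and 22.2 in IgG, and 7.88 and 6.97 in the input. The log2 fold change over input was 1.87 ± 0.40 in wildtype CPEB4 (edgeR adjusted p = 0.0037; 0.40 with total counts) and 1.61 ± 0.40 in IgG (edgeR adjusted p = 0.0152; -0.90 with total counts). Cenpe had 47.9 and 52.6 under the label, 41.9 and 57.2 in wildtype CPEB4, 57.9 and 55.0 in IgG, and 19.7 and 17.04 in the input. The log2 fold change over input was 1.43 ± 0.35 in wildtype CPEB4 (edgeR adjusted p = 0.00712; -0.06 with total counts) and 1.62 ± 0.35 in IgG (edgeR adjusted p = 0.0094; -0.89 with total counts). Both wildtype CPEB4 values were above both IgG values for Knl1 and Kif20b and overlapped them for Cenpe, and none of these differences passed between CPEB4 and IgG.

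Anln and Ect2, the other genes with an excess, act in cytokinesis. Anln had 47.4 and 36.6 under the CPEB4-/- label, 42.4 and 31.8 in wildtype CPEB4, 35.3 and 37.6 in IgG, and 15.2 and 16.2 in the input, with log2 fold changes over input of 1.24 ± 0.35 in wildtype CPEB4 (edgeR adjusted p = 0.0127; -0.23 with total counts) and 1.22 ± 0.35 in IgG (edgeR adjusted p = 0.0253; -1.28 with total counts). Ect2, the exchange factor that activates RhoA at the furrow, had 46.6 and 44.8 under the label, 44.6 and 30.2 in wildtype CPEB4, 30.9 and 43.2 in IgG, and 14.97 and 18.1 in the input, with log2 fold changes of 1.18 ± 0.37 in wildtype CPEB4 (edgeR adjusted p = 0.0206; -0.28 with total counts) and 1.17 ± 0.37 in IgG (edgeR adjusted p = 0.0356; -1.31 with total counts). Cenpf passed in IgG only, at 76.7 and 216 in IgG and 27.0 and 33.7 in the input, with a log2 fold change of 2.27 ± 0.68 (edgeR adjusted p = 0.0303; -0.14 with total counts). For wildtype CPEB4 over input the log2 value of Cenpf was 1.47 ± 0.66 (edgeR adjusted p = 0.0823), and the difference between CPEB4 and IgG did not pass.

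Birc5 led the genes that were lower, and it was the only 1 of the 38 to be lower in IgG, where 18.2% of all genes were higher and 15.6% lower and 6 of the 38 were higher. Without input replicate 1, input replicate 2, IgG replicate 1 or IgG replicate 2 the higher genes in IgG numbered 1, 1, 2 and 1; Birc5 lost its call there in each of these fits except the one without input replicate 2, and without CPEB4-/- replicate 2 in the fit 8 were higher and 8 lower. It had 8.89 and 7.59 under the CPEB4-/- label, 5.78 and 8.46 in wildtype CPEB4, 11.6 and 10.9 in IgG, and 37.7 and 34.0 in the input. Its log2 fold change over input was -2.33 ± 0.36 in wildtype CPEB4 (edgeR adjusted p = 0.00113) and -1.67 ± 0.36 in IgG (edgeR adjusted p = 0.00891). All 6 precipitates lay below both inputs, and Birc5 was also lower with total counts in both.

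The other genes lower in wildtype CPEB4 came mostly from the entry, passenger and anaphase groups: 4 of 6 entry genes, both passenger genes and both anaphase genes, beside 1 of 4 checkpoint, 1 of 6 kinetochore and 2 of 7 midzone genes, and none of the spindle or chromosome groups. Aurka, the spindle pole kinase, had 9.11 and 8.54 in wildtype CPEB4, 13.0 and 14.1 in IgG, and 23.9 and 26.8 in the input, a log2 fold change over input of -1.52 ± 0.33 in wildtype CPEB4 (edgeR adjusted p = 0.00416). Cdk1, with 35.4 and 53.7 in the input, had a log2 fold change of -1.53 ± 0.36 (edgeR adjusted p = 0.00593), and Cenpa, with 45.5 and 50.3 in the input, had -1.48 ± 0.37 (edgeR adjusted p = 0.00777). Ccna2 had 22.2 and 26.2 in wildtype CPEB4, 45.8 and 31.7 in IgG, and 75.2 and 104 in the input, a log2 fold change of -1.89 ± 0.46 (edgeR adjusted p = 0.00665). Cdc20, with 27.8 and 39.4 in the input, had -2.14 ± 0.54 (edgeR adjusted p = 0.00801). Without CPEB4 replicate 1 the calls of Ccna2 and Cdc20 were lost (edgeR adjusted p = 0.0645 and 0.0577), and without CPEB4 replicate 2 those of Cdk1 and Cenpa (edgeR adjusted p = 0.0516 and 0.0827). Plk1 (-1.60), Aurkb (-1.60), Kif20a (-1.37), Mad2l1 (-1.46), Ube2c (-1.90) and Racgap1 (-0.87) completed the lower genes in wildtype CPEB4. The reads of Kif20a are uncertain, because its span overlaps that of Cdc23. In IgG over input the log2 fold change was -0.90 for Aurka, -0.66 for Cdk1, -0.79 for Cenpa, -1.21 for Ccna2 and -0.66 for Cdc20, and none of these passed.

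**Figure D4:**
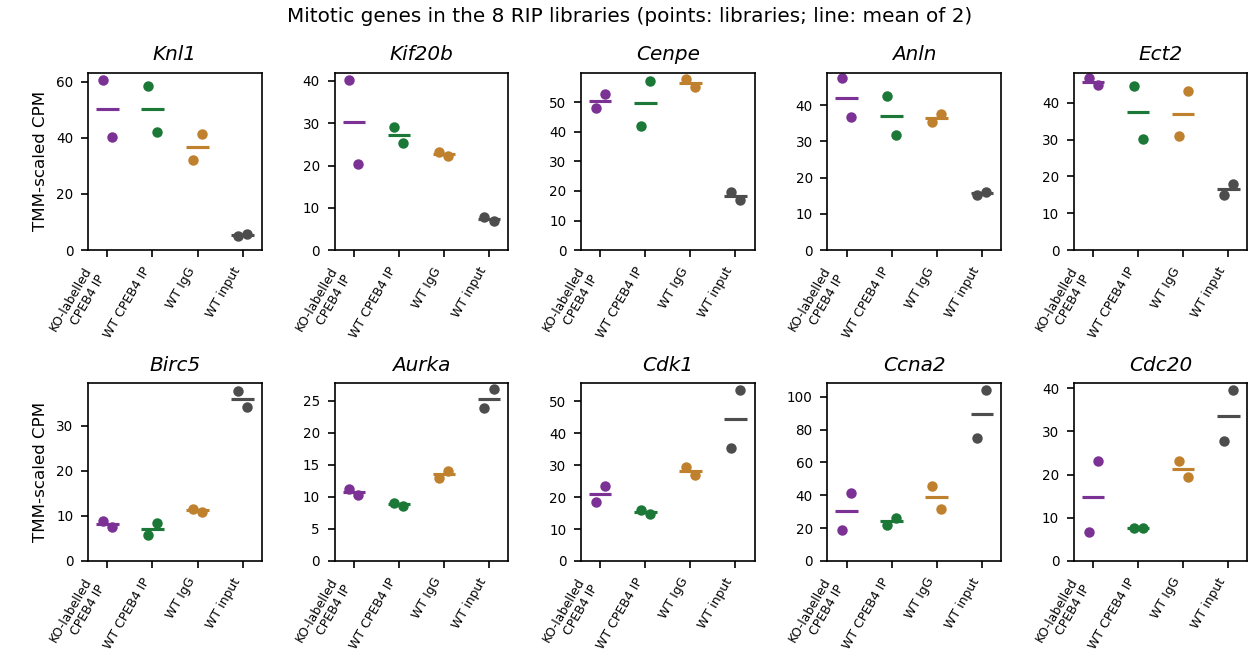
TMM-scaled CPM in each of the 8 RIP libraries (points; line, mean of 2) for the 5 genes with the smallest p among those higher in wildtype CPEB4 over input (upper row) and 5 of those lower (lower row), with KO-labelled standing for CPEB4-/-. All 6 precipitates of each upper gene lie above both inputs, from Knl1 at 5.06 and 5.88 in the input to 60.4 under the CPEB4-/- label, although with total counts as the scale Cenpe, Anln and Ect2 fell below input in CPEB4 and Cenpe, Kif20b, Anln and Ect2 in IgG.

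Which genes were higher or lower followed the genomic span of the gene in both precipitates. The 19 genes of shorter span (2974 to 29886 bases) had a median log2 fold change over input of -1.46 in wildtype CPEB4 and -0.66 in IgG, and the 19 of longer span (30657 to 63379 bases) had 0.45 in wildtype CPEB4 and 0.57 in IgG. Knl1 spans 63379 bases and Kif20b 53416, whereas Ube2c spans 2974, Cdc20 4443 and Birc5 6507. Over the 38 genes the Spearman correlation of span with the log2 fold change was 0.825 in CPEB4 over input and 0.821 in IgG over input, and over 15524 genes with a span it was 0.635 and 0.548, so the relation was not particular to mitotic genes. For wildtype CPEB4 over IgG it was 0.641 over the 38 genes and 0.579 over all genes, and for the CPEB4-/- label over wildtype CPEB4 it was -0.428 and -0.224. These are descriptions across genes, which are not independent replicates; span moves with intron and transcript length, and their part in the result was not tested.

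**Figure D5:**
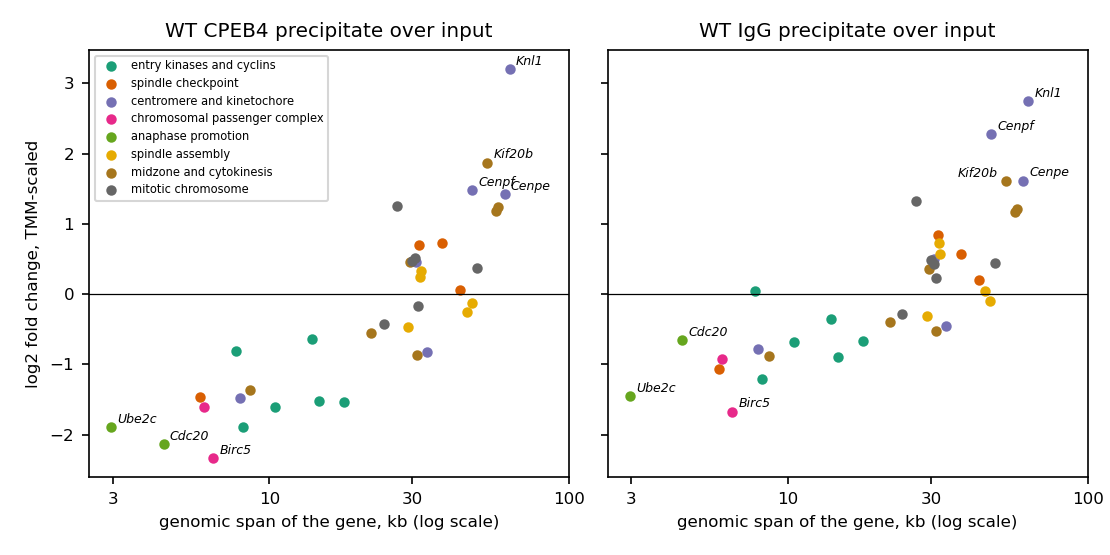
TMM-scaled log2 fold change over input (vertical axis) against genomic span in kilobases (log axis) for the 38 genes, coloured by role, in the wildtype CPEB4 precipitate and the wildtype IgG precipitate. In both panels the points climb from short genes such as Ube2c and Birc5 to long genes such as Knl1 (Spearman 0.825 for CPEB4 and 0.821 for IgG); with total counts as the scale Cenpe is below 0 in both panels, and Kif20b and Cenpf are below 0 for IgG.

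Pathway genes outside the set went in both directions against the input, and the split varied by list. The shares of all genes to set beside them are 27.4% higher and 27.6% lower in wildtype CPEB4, and 18.2% higher and 15.6% lower in IgG. In wildtype CPEB4 over input 2 of 31 kinetochore and checkpoint genes were higher and 9 lower, and in IgG over input 1 was higher and 6 lower. Mad1l1, a checkpoint gene, had 68.2 and 59.3 in wildtype CPEB4, 38.6 and 37.8 in IgG, and 11.4 and 11.2 in the input (log2 fold changes 2.49 ± 0.38 and 1.75 ± 0.37), and Cenpm was lower in both (-2.32 ± 0.41 and -1.56 ± 0.41). Of 26 motors and spindle genes 7 were higher and 4 lower in CPEB4 over input, with Cit at 2.00 ± 0.39 and Cdca3 at -3.09 ± 0.49, and 6 higher and 4 lower in IgG over input, with Aspm at 1.79 ± 0.40 and Cit at 1.59 ± 0.39. Of 12 condensin and separation genes 2 were higher and 3 lower in CPEB4 (Ncapd3 1.56 ± 0.37, Cdca5 -1.94 ± 0.44), and 2 higher and 1 lower in IgG (Stag2 1.43 ± 0.44, Pttg1 -1.81 ± 0.52). The anaphase-promoting complex had 2 of 17 higher and 11 lower in CPEB4, with Anapc11 at -2.54 ± 0.34 and Anapc13 at -3.26 ± 0.47, and none higher and 5 lower in IgG, with Anapc11 at -2.01 ± 0.34 and Anapc16 at -1.62 ± 0.35. Entry regulators had 2 of 12 higher and 5 lower in CPEB4 (Pkmyt1 -2.44 ± 0.42, Pbk -2.28 ± 0.40), and 1 higher and 2 lower in IgG (Wee1 1.67 ± 0.43, Pkmyt1 -1.90 ± 0.42). Transcriptional regulators had 5 of 16 higher and 3 lower in CPEB4 (E2f3 2.43 ± 0.40, Lin52 3.10 ± 0.53), and 4 higher and none lower in IgG (E2f3 1.7 ± 0.39, Lin52 1.88 ± 0.51). No gene of these lists passed between CPEB4 and IgG or between the CPEB4-/- label and wildtype CPEB4.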

How the data were processed

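The 38 genes, the role groups, the pathway lists and the tests were chosen with earlier results of these data known. Per the labels, the droplet libraries were 10x Genomics oligo(dT) libraries. Per the submitters' processing notes, Bowtie2, SAMtools and Cell Ranger were used with mm10; no version or role of these tools could be read there. The authors deposited unnormalised counts per gene and cell, per gene and RIP library, and per hash tag and cell. The labels do not say if counts of fresh cells are molecules or reads.

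From these counts, CPM and ratios with exact 95% binomial intervals were computed for the cultures (genes whose counts in the 2 libraries sum to 10 or more, pseudocount 0.5 in log2 ratios). Cells were thinned to 4500 counts (cultures) or 200 (fresh) and called to hold the programme at 5 or more genes. Fresh cells took the class of the marker list with the highest count relative to the mean of that list over all cells of the library (at least 2 counts); no doublet caller was run, and 49 and 40 cells of the APLP1-/- and wildtype libraries had a second list within 1.5 times. Tags assigned a mouse at 10 or more tag counts with 75% of 1 tag. Tests used edgeR 4.0.16 (TMM, filterByExpr, quasi-likelihood test; adjusted p below 0.05, Benjamini-Hochberg over all genes tested) in R 4.3.3. All 4 RIP groups entered 1 fit. DESeq2 1.42.0 was an alternative, and the scripts were tested on simulated data. Nothing says that RIP replicates came from separate cultures, so p-values measure the spread between these samples.

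Values are given for Mki67, Top2a, Cdk1, Ccnb1 and the genes of largest and smallest ratio per role in the cultures, for up to 6 genes of smallest p per direction in RIP (3 where none passed) and per contrast in fresh cells, and for 2 genes each way per pathway list. Other genes, such as Cenpa, Cenpf, Birc5 and Kif20a per cell, and those that missed the threshold in fresh cells, were chosen after their values were seen.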

Additional observations from a re-analysis of the deposited data

How the results depend on the processing

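Direction and call held for most single-gene values: 320 kept both, 42 lost the threshold, 2 gained it and 11 reversed. Of the counts, levels and shares compared, 165 stayed the same and 53 moved. Counts of genes were taken as the same within 1.5 times. Shares of cells and levels of mice were the same inside the 95% interval of the main setting. For the median log2 ratio of the cultures the margin came from the 95% interval of the summed ratio. In the cultures all 38 genes stayed 2-fold lower under each scaling; the median log2 ratio was -3.36 with TMM and -3.17 without mitochondrially encoded genes. Shares of cells with 5 or more genes were 2.82% (BMP4) and 36.9% (EGF) at the lower depth of 2000 counts, 7.10% and 82.3% unthinned. In fresh cells, classes from a plain sum of markers gave 14 (progenitor) and 12 (neuroblast) higher genes, with 624 genes called for progenitors; DESeq2 called 634 and 1053 genes; without the low-count filter 338 genes separated progenitor from neuroblast cells. At 3 tag counts the APLP1-/- mice of tags 2 and 3 had 2072 and 3599 CPM and the wildtype mouse of tag 1 had 2099. Leaving out a fresh library left no residual degrees of freedom.

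For CPEB4 over IgG the genes called were 14 with DESeq2, 165 unfiltered, 1 with IgG numbers crossed, 534 with only the 2 groups and 412 without CPEB4-/- replicate 2, with 1 of the 38 lower in each of these last 2 fits; with total counts Cdk1 was 0.16 and Ccnb1 0.19. For CPEB4 over input, 3 of the 38 were higher unfiltered, and 0 higher and 20 lower with total counts (Cenpe -0.065, Anln -0.23, Ect2 -0.28). For IgG over input, the lower genes numbered 2 with DESeq2, 7 unfiltered, 7 with only the 2 groups, 4 with numbers crossed, 8 without CPEB4-/- replicate 2 (8820 genes called) and 28 with total counts (0 higher, 11602 genes called; Cenpe -0.89, Kif20b -0.90, Anln -1.28, Cenpf -0.14, Ect2 -1.31). For the CPEB4-/- label over wildtype, 50 genes were called unfiltered.

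Leaving out 1 library at a time, CPEB4 over input called 5067 to 11643 genes, 2 to 7 of the 38 higher and 5 to 14 lower; IgG over input called 1196 to 8820 genes, 1 to 8 higher and 0 to 8 lower; CPEB4 over IgG called 0 to 412 genes; the CPEB4-/- label over wildtype called 0 to 4 genes, with Cdc20 from -0.21 to 1.58. The highest counts against input and against IgG came without CPEB4-/- replicate 2, and the 4 genes without CPEB4-/- replicate 1. A lone library was assumed to vary like the other groups, and the cause of these shifts was not tested. With the replicate number as a block, CPEB4 over input had 6 higher and 11 lower (9105 genes called), IgG over input 5 higher and 1 lower (5447 genes called) and the other comparisons 0; deviations of same-numbered libraries correlated at 0.103 to 0.33 in the 3 pairs of groups without IgG and at -0.37 to -0.18 in the 3 with IgG, so whether the numbers pair the libraries was not settled. With the IgG numbers crossed, IgG over input had 7 higher and 4 lower (7396 genes called). Fresh cells hold few counts, so genes such as Bub1 and Ndc80 could not be tested there.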

Other observations

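In fresh cells the mitotic level was also read outside the lineage classes. The 37 cells of the APLP1-/- library and 43 of the wildtype library that took the endothelial marker list had summed levels of 5628 and 3291 CPM, yet they held more of the quiescent list (14868 and 26422 CPM) than of their own (5593 and 5861 CPM). Cells with no class, 162 in the APLP1-/- library and 154 in the wildtype library, stood at 4872 and 3185 CPM and were shallow, with median depths of 239.5 and 269.5 counts. Cells of the mature neuron list, 32 in the APLP1-/- library and 22 in the wildtype library, had 2326 and 1340 CPM.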
